A study of Mus musculus with 10 samples.

Results

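The 8 sarcomeric myosin heavy chain genes, Myh3, Myh8, Myh13, Myh7, Myh7b, Myh2, Myh1 and Myh4, were followed through mechanical overload of the mouse plantaris, with and without a drug that blocks signalling by platelet-derived growth factor (PDGF). They were picked by gene symbol in the array annotation, and these 8 genes were among 22180 genes with a probe set of their own. Where a gene had more than 1 probe set, the brightest stood for it, which concerned only Myh8 among the 8.

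RNA of plantaris muscle from male C57BL/6 mice was measured on Affymetrix Mouse Gene 2.1 ST arrays, with 10 arrays in 5 groups of 2 pools, each pool made of equal RNA amounts from 4 muscles. The reference group had neither surgery nor inhibitor. The other groups had synergist ablation, an operation that removes muscles sharing the work of the plantaris and so overloads it, for 3 d or 10 d, each without the inhibitor or with it. The sources used here do not give the inhibitor's name or dose, the age of the mice or what the mice without inhibitor received, nor whether 2 pools of 1 group hold separate animals, so each p-value rests on pool-to-pool spread that may in part be technical.

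Myosin heavy chain is the motor protein of the thick filament, and the gene a fibre uses sets much of its contraction speed. Adult limb muscle uses a slow form (Myh7) and 3 fast forms, IIa (Myh2), IIx (Myh1) and IIb (Myh4), while the embryonic form (Myh3) and the perinatal form (Myh8) are made during development and return in newly formed and regenerating fibres. Myh13 encodes the extraocular form, and Myh7b encodes a slow-tonic form. In the mouse, Myh3, Myh2, Myh1, Myh4, Myh8 and Myh13 stand in this order in a cluster on chromosome 11, whereas Myh7 is on chromosome 14 and Myh7b on chromosome 2.

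Of the clustered genes, Myh1, Myh2, Myh4 and Myh8 share sequence just upstream of their starts. It is shown here because it is common to Myh8, which rose under overload, and to 3 genes that were not called. The sequences are those of RefSeq on GRCm38.p6, in which all 8 genes matched; Myh7 has 2 annotated starts with overlapping windows, so there were 9 windows of 250 bases. Capitals mark a run of 14 bases found in 4 of the genes and a run of 15 bases found in 3 of them, and in Myh3, which holds neither, the letters TATAAA. All 5 windows are on the plus strand, at chr11:67199866-67199965 for Myh1, chr11:67170826-67170925 for Myh2, chr11:67237578-67237677 for Myh4, chr11:67276994-67277093 for Myh8 and chr11:67078200-67078299 for Myh3.
Myh1: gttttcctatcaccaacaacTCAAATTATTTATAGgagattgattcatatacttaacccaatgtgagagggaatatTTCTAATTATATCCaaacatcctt
Myh2: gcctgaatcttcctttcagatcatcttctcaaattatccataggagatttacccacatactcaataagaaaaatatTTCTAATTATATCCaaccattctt
Myh4: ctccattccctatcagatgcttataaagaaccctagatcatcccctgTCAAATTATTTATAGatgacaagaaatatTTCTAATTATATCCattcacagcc
Myh8: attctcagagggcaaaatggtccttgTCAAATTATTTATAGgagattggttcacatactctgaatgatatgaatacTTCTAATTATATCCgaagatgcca
Myh3: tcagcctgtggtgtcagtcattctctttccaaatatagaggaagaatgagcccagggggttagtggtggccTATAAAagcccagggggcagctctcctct

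Among 32851 windows of 250 bases upstream of annotated mouse starts, searched on both strands, TTCTAATTATATCC occurred in 4, those of Myh1, Myh2, Myh4 and Myh8. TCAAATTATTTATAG occurred in 3, those of Myh1, Myh4 and Myh8, and the closest run in Myh2 had 2 mismatches. Counted from the annotated start, the 14-base run began at position -160 in Myh1, -125 in Myh2, -158 in Myh4 and -54 in Myh8. Runs of at least 12 bases shared by at least 3 of the genes were looked for, so their sharing is a description.

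A match to the MEF2 motif, bound by a family of muscle transcription factors, lay within the 15-base run of Myh1, Myh4 and Myh8, and 2.92% of all windows hold such a match. The letters TATAAA were in 4 of the 9 windows, against 12.4% of all windows, the E-box CANNTG in 7 of 9 against 66.2%, and the MCAT letters CATTCC in 3 of 9 against 12.6%, each on either strand. In Myh1, Myh4 and Myh8 a TATAAA match on the minus strand overlapped the 15-base run and the MEF2 match. A CArG match was present in 1 of 9 windows, that of Myh4, against 1.47% of all windows. These matches are descriptions and not binding sites.

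**Figure D1:**
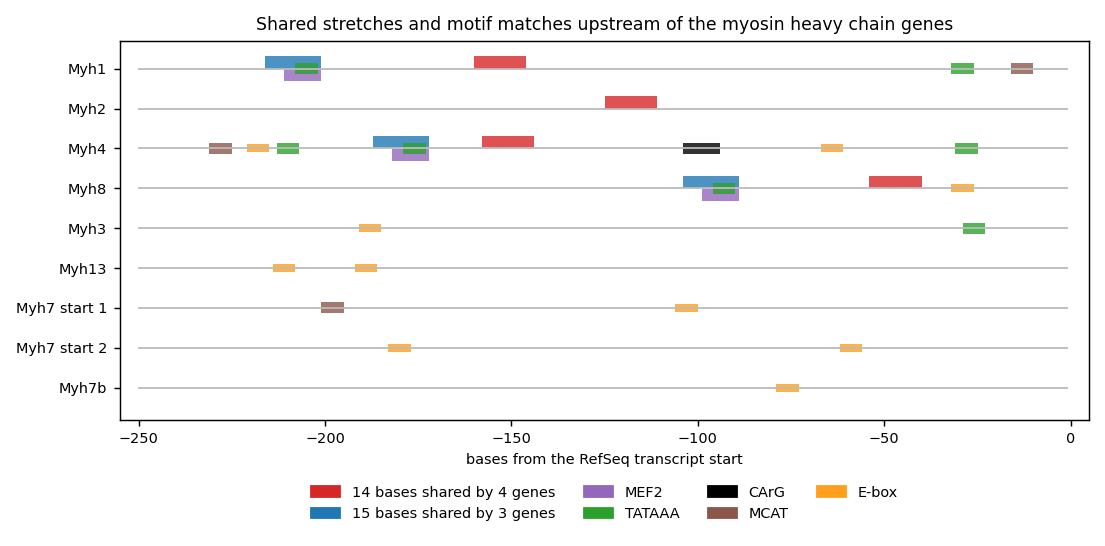
Upstream windows of the 9 annotated starts, drawn by distance from the start in bases. Coloured blocks are the 14-base and 15-base runs and the motif matches. The 14-base run appears in Myh1, Myh2, Myh4 and Myh8 and in none of the windows of Myh3, Myh13, Myh7 and Myh7b.

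The arrays gave similar array medians, from 2.40 to 2.45 log2 units, and a table ceiling of 12.71. All 8 genes had group means above the dim level of 1.86 log2 units, which 95% of olfactory and vomeronasal receptor genes stayed under. Values of different genes come from different probes, so levels are compared between groups within a gene only. Markers of skeletal muscle fibres summed to 14.66 to 14.86 log2 units in every pool, and those of cardiac muscle were low, with 2 of 5 under this dim level.

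**Figure D2:**
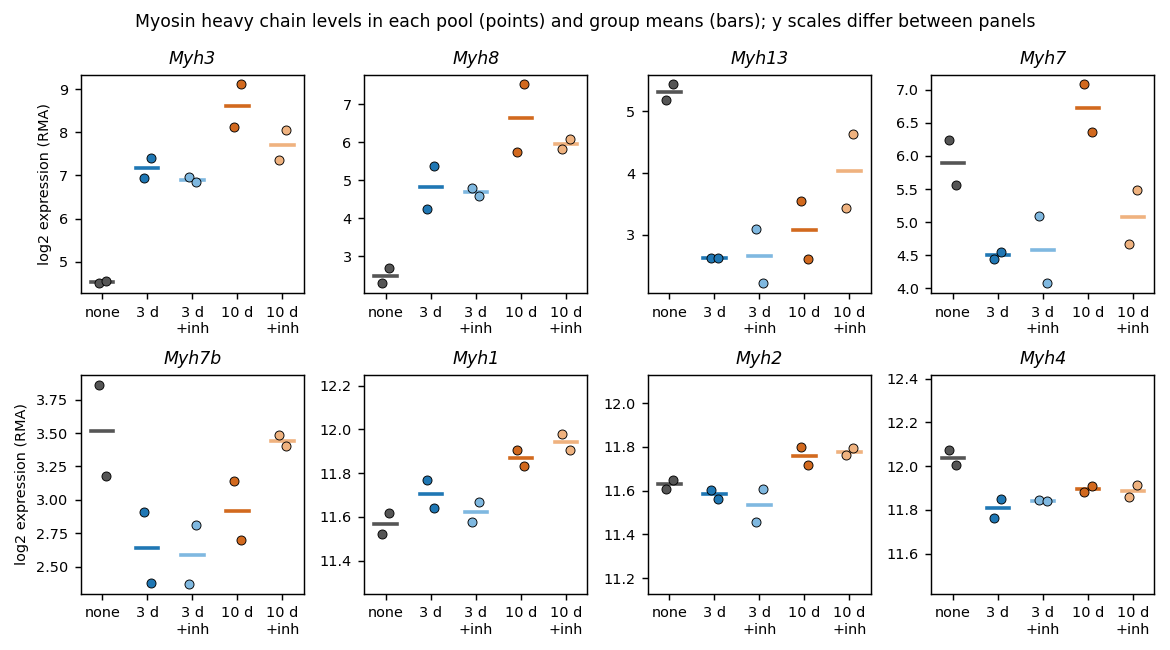
Level of each of the 8 genes in every pool, in log2 units, by group, with points for pools and bars for group means. Myh3 and Myh8 lie higher in all overload pools than in the pools without overload, Myh13 lies lower in all of them, and the fast adult genes stay within 11.46 to 12.07.

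Embryonic myosin rose at both times of overload. Myh3 measured 4.49 and 4.55 log2 units without overload, 6.94 and 7.40 at 3 d, 6.96 and 6.84 at 3 d with inhibitor, 8.13 and 9.11 at 10 d, and 7.36 and 8.06 at 10 d with inhibitor. Every overload pool was higher than both pools without overload, and the 10 d pools without inhibitor were above all others. Against no overload, Myh3 rose by 2.64 ± 0.34 log2 units (SE, n = 2 pools a group, 6.25-fold) at 3 d and by 4.10 ± 0.34 (17.1-fold) at 10 d, with Benjamini-Hochberg adjusted p of 0.00124 and 0.00151 in limma. From 3 d to 10 d it rose by a further 1.45 ± 0.34, 2.74-fold. In limma this rise had an adjusted p of 0.0413, and of 0.13 when only the groups compared were fitted. That last call was lost in 7 of the 10 omissions of 1 pool, those of either pool without overload and any pool at 3 d, with or without inhibitor, and of pool 2 at 10 d, with changes of 0.96 to 1.69 and adjusted p up to 0.204.

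Perinatal myosin also rose at both times. Myh8 measured 2.29 and 2.70 without overload, 4.25 and 5.37 at 3 d, 4.79 and 4.58 at 3 d with inhibitor, 5.75 and 7.51 at 10 d, and 5.81 and 6.08 at 10 d with inhibitor. All overload pools lay above the pools without overload, with the spread between the 10 d pools the widest of any group for this gene. The rise was 2.31 ± 0.54 (4.97-fold, adjusted p 0.018 in limma) at 3 d and 4.13 ± 0.54 (17.5-fold, adjusted p 0.00566) at 10 d. From 3 d to 10 d the difference was 1.82 ± 0.54, adjusted p 0.0869 in limma. It was 2.70 (adjusted p 0.0301) without pool 1 at 10 d and 0.94 (adjusted p 0.272) without pool 2 at 10 d, and 1.55 (adjusted p 0.0359) with the gene's probe sets averaged.

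The 3 d call of Myh8 was lost in 3 of 10 omissions, those of either pool without overload and of pool 2 at 3 d, with changes of 1.75 to 2.52. A second, dimmer Myh8 probe set gave 2.12 and 2.0 without overload, 2.01 and 1.15 at 3 d, and 2.44 and 3.30 at 10 d. With inhibitor it gave 1.51 and 1.78 at 3 d and 2.65 and 2.80 at 10 d. Pool 2 at 3 d and both 3 d pools with inhibitor were under the dim level of 1.86 log2 units. None of this probe set's comparisons was called in a fit over all probe sets. When the probe sets were averaged, the 3 d change was 0.92 and was not called. At 10 d the change of the brighter probe set ranged from 3.25 to 5.02 over the omissions, each time called, being 5.02 without pool 1 and 3.25 without pool 2 at 10 d, and lost its call (adjusted p 0.0828) when only the groups compared were fitted. With the probe sets averaged the 10 d change was 2.47 and was called.

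Other genes of newly formed fibres rose as well. Of 12 such genes, 9 rose and none fell at 3 d, with a median change of 2.04 against -0.04 over all genes, and 9 rose at 10 d, with a median of 1.74, where 17.5% and 5.13% of all genes were called. At 3 d the largest rise was that of Mymk, which encodes the membrane fusion protein myomaker, by 4.41 ± 0.28. Next came Myog, a muscle differentiation factor, by 3.32 ± 0.27, and Myl6b, a myosin light chain, by 2.72 ± 0.19. Mymk rose by 3.94 at 10 d, Actc1, the cardiac actin of developing muscle, by 2.41 and Myl4, an embryonic light chain, by 2.17. Between 3 d and 10 d Myog fell by 1.51, while Myh3 rose.

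The extraocular gene fell. Myh13 measured 5.18 and 5.43 without overload, 2.63 and 2.62 at 3 d, 3.10 and 2.21 at 3 d with inhibitor, 3.55 and 2.61 at 10 d, and 3.44 and 4.63 at 10 d with inhibitor. Each overload pool was below both pools without overload. The change was -2.68 ± 0.44 (6.40-fold lower, adjusted p 0.00405 in limma) at 3 d and -2.22 ± 0.44 (4.67-fold lower, adjusted p 0.0274) at 10 d. The 10 d call was lost in 5 of 10 omissions, those of either pool without overload, either pool at 3 d without inhibitor and pool 2 at 10 d, with changes of -2.35 to -1.75 and adjusted p up to 0.168. When only the groups compared were fitted, the 10 d change of Myh13 was not called (adjusted p 0.0868 in limma). In bulk muscle, fewer cells making a transcript and less transcript per cell cannot be told apart.

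Among the slow genes, Myh7 fell at 3 d and rose between 3 d and 10 d. Myh7, the slow form of adult limb muscle and of the heart, measured 6.23 and 5.56 without overload, 4.44 and 4.55 at 3 d, 5.09 and 4.07 at 3 d with inhibitor, 7.08 and 6.36 at 10 d, and 4.68 and 5.48 at 10 d with inhibitor. The 3 d pools lay below the pools without overload and the 10 d pools without inhibitor above them. Myh7 fell by 1.40 ± 0.41 (2.64-fold, adjusted p 0.0486 in limma) at 3 d and rose by 2.23 ± 0.41 (4.68-fold, adjusted p 0.0195) from 3 d to 10 d. Against no overload, its 10 d difference was 0.83 ± 0.41, adjusted p 0.306 in limma.

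The 3 d call of Myh7 was near the threshold. It was lost in 6 of 10 omissions, those of either pool without overload, either pool at 3 d and either pool at 10 d without inhibitor, with changes of -1.74 to -1.06 and adjusted p up to 0.235. The rise from 3 d to 10 d was lost in 3 of 10, those of either 3 d pool and of pool 1 at 10 d, with changes of 1.87 to 2.28.

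Myh7b measured 3.86 and 3.18 without overload, 2.91 and 2.38 at 3 d, 2.37 and 2.81 at 3 d with inhibitor, 3.14 and 2.70 at 10 d, and 3.49 and 3.40 at 10 d with inhibitor. The 3 d pools were lower than both pools without overload, by 0.88 ± 0.28, with an adjusted p of 0.0689 in limma. After a further quantile normalization the difference was -1.05, adjusted p 0.0378, and was called. Over the omissions of 1 pool it ranged from -1.22 (adjusted p 0.0379) without pool 2 of the reference group to -0.54 (adjusted p 0.332) without pool 1 of that group, and it was -0.61 (adjusted p 0.313) without pool 2 at 3 d.

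Partner genes of slow fibres did not all follow Myh7. Of 10, 2 rose and 1 fell at 3 d and 4 rose at 10 d, with medians of 0.25 and 0.52, where 17.5% and 5.13% of all genes were called. Casq2, a calcium store protein, and Tnnt1, slow troponin T, rose by 1.91 ± 0.18 and 0.65 ± 0.15 at 3 d and by 1.37 and 2.0 at 10 d. Myl3, the slow light chain, fell by 0.98 ± 0.28 at 3 d, and Tnnc1, slow troponin C, rose by 1.30 at 10 d.

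Introns of Myh7b and Myh7 hold microRNAs known to act on fibre type, and Myh6, a cardiac form, holds a close relative. Their mature sequences, with the seed (bases 2 to 8) in capitals, are shown because miR-208b-3p and miR-208a-3p have the same seed. From RefSeq on GRCm38.p6, they lie at chr2:155622893-155622913 on the plus strand, chr14:54975710-54975731 on the minus strand and chr14:54949072-54949093 on the minus strand.
mmu-miR-499-5p, in Myh7b: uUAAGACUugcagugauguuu
mmu-miR-208b-3p, in Myh7: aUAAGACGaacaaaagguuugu
mmu-miR-208a-3p, in Myh6: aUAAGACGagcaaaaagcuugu
The probe sets of the 3 precursors measured 0.37 to 1.65 log2 units in all pools, below the dim level, and none was called, so the host genes' changes could not be set against their microRNAs here.

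The adult fast genes were bright in every pool, and none of their differences passed the test. Myh2 measured 11.61 and 11.65 without overload, 11.60 and 11.56 at 3 d, 11.46 and 11.61 at 3 d with inhibitor, 11.80 and 11.72 at 10 d, and 11.76 and 11.80 at 10 d with inhibitor. Its differences from no overload were -0.05 ± 0.13 at 3 d and 0.13 ± 0.13 at 10 d, with adjusted p of 0.862 and 0.617 in limma. Only the 10 d pools lay above the pools without overload.

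Myh1 measured 11.52 and 11.62 without overload, 11.77 and 11.64 at 3 d, 11.57 and 11.67 at 3 d with inhibitor, 11.91 and 11.83 at 10 d, and 11.98 and 11.91 at 10 d with inhibitor. The 10 d pools were above all others, by 0.30 ± 0.13 over no overload without inhibitor and 0.37 ± 0.13 with it, with adjusted p of 0.235 and 0.213 in limma. With a trended, robust prior for the spread, the same differences had adjusted p of 0.0104 and 0.00431.

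Myh4, a main fast form of mouse limb muscle, measured 12.07 and 12.01 without overload, 11.76 and 11.85 at 3 d, 11.84 and 11.84 at 3 d with inhibitor, 11.88 and 11.91 at 10 d, and 11.86 and 11.91 at 10 d with inhibitor. All overload pools lay below the pools without overload, by 0.23 ± 0.12 at 3 d and 0.14 ± 0.12 at 10 d, with adjusted p of 0.25 and 0.561 in limma. The 3 d difference had an adjusted p of 0.0061 with the trended, robust prior. These 3 genes are near the top of the table. Among the 25 genes at least as bright as the dimmest of them, the median absolute change at 3 d was 0.08, against 0.26 over all genes, and 2 of the 25 were called, with the largest change, of 0.87 in size, in Pdlim3.

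Within each array, and relative to the reference group's mean, Myh1 minus Myh4 was -0.08 and 0.08 without overload and 0.20 to 0.59 in the 8 overload pools. Myh2 minus Myh4 was -0.05 and 0.05 without overload and 0.03 to 0.33 with it. Myh1 minus Myh2 was -0.03 and 0.03 without overload and 0.12 to 0.28 with it. The lowest overload value of Myh2 minus Myh4, in a 3 d pool with inhibitor, lay within the range of the reference pools. These differences compare probe sets near the top of the table and are descriptions with no test.

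**Figure D3:**
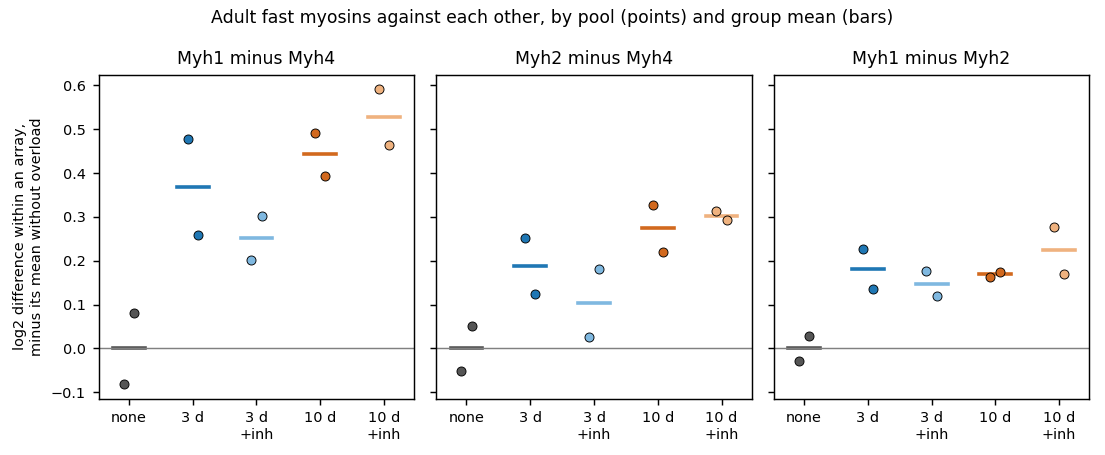
Differences in log2 units between adult fast genes within each array, minus the mean without overload, with points for pools and bars for group means. Myh1 minus Myh4 lies between 0.20 and 0.59 in the overload pools and between -0.08 and 0.08 without overload.

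Among 13 partner genes of fast fibres, none rose and 5 fell at 3 d, with a median of -0.37, where 17.5% of all genes were called. From 3 d to 10 d 5 rose, where 6.08% of all genes were called, and limma called none of the 13 at 10 d against no overload (1 at an unadjusted p under 0.05). At 3 d Mylk2, the skeletal myosin light chain kinase, fell by 1.28 ± 0.16, Myoz1, a Z-disc protein, by 0.80 ± 0.13 and Pvalb, the calcium buffer parvalbumin, by 0.80 ± 0.13.

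Counted over the 8 genes, 2 rose and 2 fell at 3 d against no overload, where 17.5% of all genes were called. At 10 d, 2 rose and 1 fell, where 5.13% of all genes were called. From 3 d to 10 d, 2 rose and none fell, where 6.08% of all genes were called. The members' median change at these comparisons was -0.14, 0.21 and 0.37, against -0.04, -0.04 and 0.01 over all genes. The comparisons with no overload share the same 2 reference pools. When all 41345 probe sets were tested in 1 fit, 5 of these 9 calls were lost: those of Myh7 (adjusted p 0.109) and Myh8 (0.0501) at 3 d, of Myh13 at 10 d (0.079), and of Myh7 (0.0636) and Myh3 (0.109) from 3 d to 10 d. Probes of these closely related genes could also read each other's transcripts, which was not tested.

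**Figure D4:**
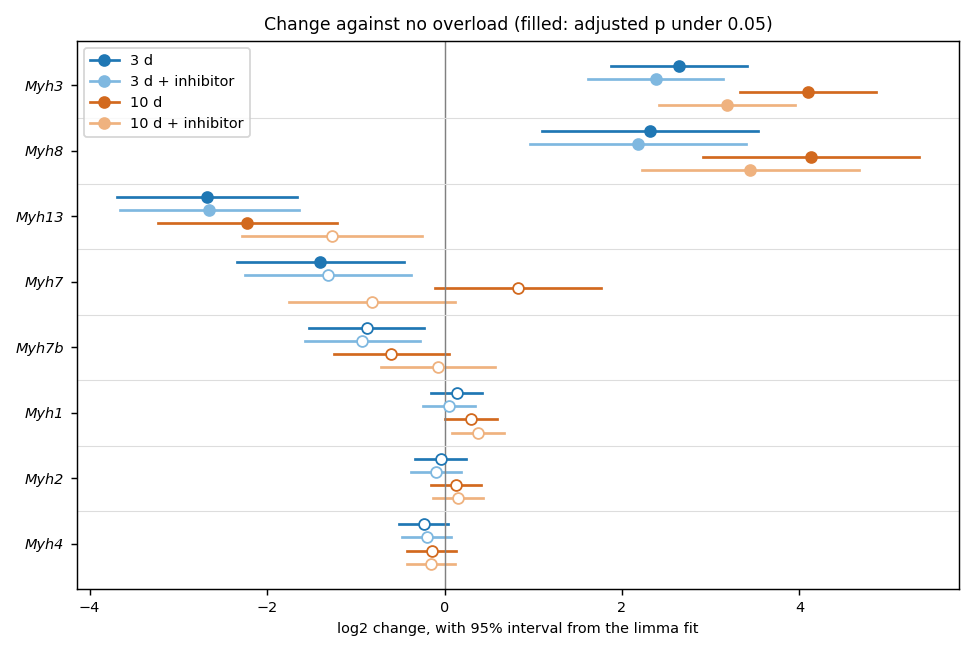
Log2 change of each of the 8 genes against no overload, with 95% confidence intervals from limma, at 3 d and 10 d with and without the inhibitor. Myh3 and Myh8 lie between 2.19 and 4.13, Myh13 between -2.68 and -1.27, and the fast adult genes within -0.23 and 0.37.

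With inhibitor, Myh3 rose by 2.38 ± 0.34 at 3 d and 3.19 ± 0.34 (9.09-fold) at 10 d against no overload, with adjusted p of 0.00284 and 0.0046 in limma. Myh8 rose by 2.19 ± 0.54 and 3.45 ± 0.54 (10.9-fold), with adjusted p of 0.0282 and 0.0211. Myh13 fell by 2.65 ± 0.44 at 3 d, adjusted p 0.0058, and its 10 d difference was -1.27 ± 0.44, adjusted p 0.222. Of the 8 genes, 3 were called at 3 d and 2 at 10 d, where 14.2% and 1.56% of all genes were called. The Myh8 calls were lost in 4 of 10 omissions at each time, those of either pool without overload and of either pool of the inhibitor group tested, with changes of 1.98 to 2.39 at 3 d and 3.24 to 3.66 at 10 d. They were also lost when every probe set was tested (adjusted p 0.0726 and 0.0695). With the Myh8 probe sets averaged the change was 0.88 at 3 d (adjusted p 0.141, not called) and 2.06 at 10 d (called).

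Myh7 with inhibitor differed from no overload by -1.32 ± 0.41 at 3 d and by -0.82 ± 0.41 at 10 d, with adjusted p of 0.0699 and 0.403 in limma. From 3 d to 10 d with inhibitor, none of the 8 genes was called, where 4.65% of all genes were, although 5 of the 8 and 4256 of all genes had an unadjusted p under 0.05. The differences over that interval were 0.81 ± 0.34 for Myh3, 1.26 ± 0.54 for Myh8, 1.38 ± 0.44 for Myh13, 0.85 ± 0.28 for Myh7b and 0.32 ± 0.13 for Myh1.

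The direct comparison set overload with inhibitor against overload without it. Effects through PDGF signalling and other effects of the treatment could not be told apart here. At 3 d none of the 8 genes was called in limma, where 0% of all genes were, and 0 of the 8 and 2011 of all genes had an unadjusted p under 0.05. The differences were -0.27 ± 0.34 for Myh3, -0.13 ± 0.54 for Myh8, 0.08 ± 0.41 for Myh7 and 0.03 ± 0.44 for Myh13. The 95% interval for Myh3 ran from -1.03 to 0.50 and that for Myh7 from -0.85 to 1.02.

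At 10 d none of the 8 genes was called in limma, where 0.104% of all genes were, while 2 of the 8 and 2352 of all genes had an unadjusted p under 0.05. Myh7 was lower in both inhibitor pools than in both pools without it, by 1.65 ± 0.41 (95% interval -2.58 to -0.71), with an unadjusted p of 0.00343 and an adjusted p of 0.206. Myh3 was likewise lower in both, by 0.91 ± 0.34 (interval -1.68 to -0.15), with an unadjusted p of 0.0247 and an adjusted p of 0.369. The Myh3 difference was -1.41 (adjusted p 0.107) without pool 1 and -0.42 (adjusted p 0.788) without pool 2 of the group without inhibitor, and -0.56 (adjusted p 0.796) without pool 1 of the inhibitor group. Myh8 differed by -0.68 ± 0.54 and Myh13 by 0.95 ± 0.44, with overlapping pools. Myh7b was 0.52 ± 0.28 higher with no overlap (adjusted p 0.568 in limma). Myh1, Myh2 and Myh4 differed by 0.08, 0.02 and -0.01, with no overlap for Myh1 and overlap for Myh2 and Myh4. How many of all genes had pools without overlap was not counted, so a lack of overlap is a description. Fibroblast markers summed to 12.12 and 12.75 in the 10 d pools without inhibitor and to 11.59 and 11.63 with it, with 0 of 6 called in limma and 6 of 6 at an unadjusted p under 0.05. Fibre markers summed to 14.82 in both pools without inhibitor and to 14.86 and 14.85 with it. The part of these markers in the myosin differences was not tested.

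Averaged over both times, the inhibitor difference was -0.78 ± 0.29 for Myh7 and -0.59 ± 0.24 for Myh3, with adjusted p of 0.31 and 0.35 in limma. None of the 8 genes was called, where 0.289% of all genes were, and 2 of the 8 and 2817 of all genes had an unadjusted p under 0.05. The inhibitor difference at 10 d minus that at 3 d was -1.73 ± 0.58 for Myh7, with an unadjusted p of 0.0165 and an adjusted p of 0.684. For this difference none of the 8 and 0% of all genes were called, and 1 of the 8 and 1434 of all genes had an unadjusted p under 0.05.

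**Figure D5:**
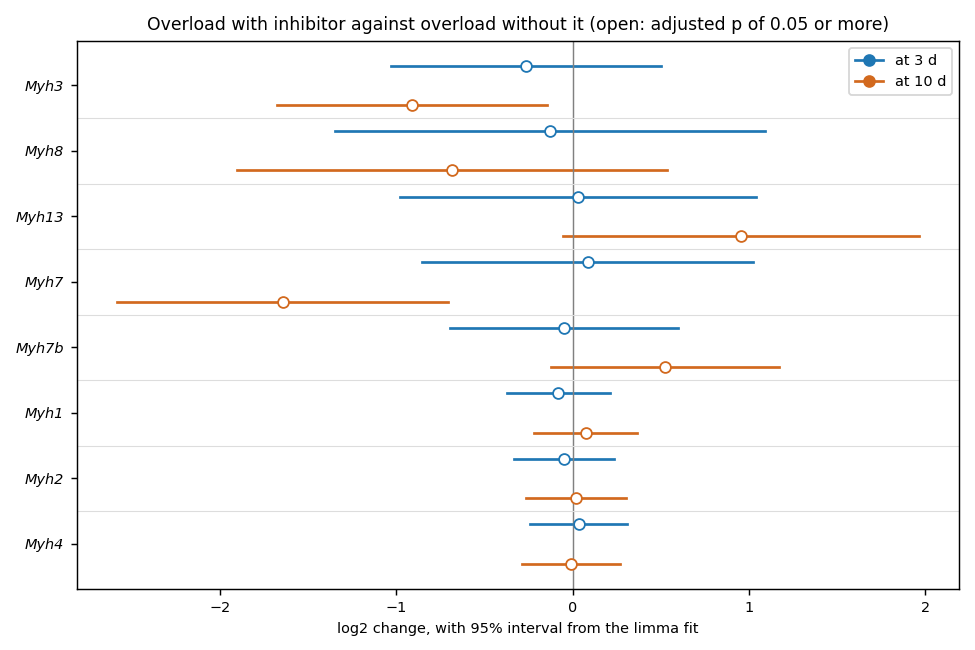
Log2 difference of each of the 8 genes between overload with and without inhibitor, with 95% confidence intervals from limma, at 3 d and 10 d. All points are open because no adjusted p was under 0.05, and Myh7 at 10 d, at -1.65, lies farthest from 0.

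Between Myh3 and Myh2 in the cluster lies 2310065F04Rik, a long non-coding RNA gene, named here after its values were seen. It measured 8.44 and 8.17 without overload, 6.64 and 6.63 at 3 d, 6.32 and 6.47 at 3 d with inhibitor, 7.17 and 7.0 at 10 d, and 6.74 and 6.93 at 10 d with inhibitor. All overload pools were lower than the pools without overload. It fell by 1.67 ± 0.15 (3.18-fold, adjusted p 0.0003 in limma) at 3 d and by 1.22 ± 0.15 (adjusted p 0.00499) at 10 d, while Myh3 on one side of it rose and Myh2 on the other was not called. The inhibitor differences were -0.24 and -0.25, neither called.

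Of the 21 measured regulators of myosin gene choice, 4 rose and 5 fell at 3 d, and none rose and 2 fell at 10 d, where 17.5% and 5.13% of all genes were called, so the 10 d share is near that of all genes. Rcan1, a calcineurin target, rose by 1.71 ± 0.18 and Myod1, a myogenic factor, by 1.07 ± 0.22 at 3 d, while Tbx15, a transcription factor of fast fibres, fell by 1.22 ± 0.13. At 10 d Thrb, a thyroid hormone receptor, fell by 0.78 and Six4, a homeobox factor of fast fibres, by 0.58. Of 8 chaperones and turnover genes, Hsp90aa1, a chaperone used in myosin folding, rose by 1.08 at 3 d, and the ubiquitin ligases Fbxo32 and Trim54 fell by 1.53 and 0.65. Of the 72 measured genes in the partner, regulator and related lists, limma called 0 for the inhibitor at 3 d and 0 at 10 d, with 7 and 12 at an unadjusted p under 0.05. Of those 7 and 12, 0 and 6 were among the 12 genes of newly formed fibres. Their median inhibitor differences were -0.11 and -0.15, against 0.03 and 0.01 over all genes. With inhibitor, 9 of these genes rose at 3 d and 5 at 10 d against no overload, where 14.2% and 1.56% of all genes were called.

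The 5 other heavy chains measured included 2 that rose and 1 that fell at 3 d, where 17.5% of all genes were called. Myh10 and Myh9, non-muscle forms found in many cell types, rose by 1.52 ± 0.17 and 1.5 ± 0.19. The cardiac form Myh6, adjacent to Myh7, fell by 1.41 ± 0.37. Myh14 and Myh11 differed by -0.58 ± 0.24 and -0.48 ± 0.16 and were not called (adjusted p 0.14 and 0.0733 in limma). Myh6 measured 3.11 and 4.3 without overload and 2.26 and 2.33 at 3 d. At 10 d Myh10 was 0.71 ± 0.17 higher and was called, where 5.13% of all genes were. Myh9 was 0.74 ± 0.19 higher at 10 d but was not called (adjusted p 0.0595 in limma).

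Markers of other cells moved with overload, and their part in the myosin changes was not tested. Of all genes, 17.5% were called at 3 d and 5.13% at 10 d against no overload. Macrophage markers rose in 6 of 6 at 3 d and 5 of 6 at 10 d, their summed level going from 6.58 to 7.05 without overload to 10.45 to 10.57 at 3 d and 8.38 to 9.0 at 10 d. Fibroblast markers rose in 4 of 6 and 5 of 6, with sums of 11.02 to 11.08 without overload and 11.86 to 12.75 in the 3 d and 10 d pools without inhibitor. Satellite cell and myoblast markers rose in 3 and fell in 1 of 6 at 3 d. At 10 d 1 of the 6 rose. Their sums were 6.65 to 7.14 without overload, 8.28 to 8.31 at 3 d and 6.96 to 7.23 at 10 d. Of 8 fibre markers, 1 was called, Ryr1, lower at 3 d.

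For each of the 8 genes, the genes with the most similar pattern were ranked by Pearson r over the 10 arrays, among 6432 or 6433 named genes with an SD of at least 0.3 log2 units. The arrays share their groups, so these values carry no p. Myh3 was most like Fam171b (0.98), Myh8 (0.98) and Mgp (0.97), and Myh8 most like Sfrp1 (0.98), Myh3 and Armh4 (0.97). Myh13 was most like Lrrc52 (0.97), Slc35f3 (0.96) and Ndufaf5 (0.96), Myh7 like Pkdrej (0.96), Wdr4 (0.95) and Adh1 (0.93), and Myh7b like Mif4gd (0.93), Tdrkh (0.91) and Ffar1 (0.91). For the fast genes the leaders were Kcne1l, Npr3 (both 0.94) and Mttp (0.93) for Myh1, Park7 (0.94), Atp1b2 (0.93) and Oscp1 (0.92) for Myh2, and Zc3h8 (0.98), Pcmtd1 (0.97) and Crim1 (0.96) for Myh4.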

How the data were processed

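RNA from 10 pools of mouse plantaris was measured on Affymetrix Mouse Gene 2.1 ST arrays. The authors deposited log2 expression values for 41345 probe sets, made with RMA and oligo and analysed with limma per the submitters' processing notes, without versions; RMA assumes like intensity distributions in all groups. The log2 scale was read from the range of the values. The labels name both a WT PLUS kit and a NuGEN kit for the same samples, and the sources used here give no genome build. The number of arrays limits the precision.

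Of the probe sets, 23521 had 1 gene symbol, 1814 several and 16010 were not listed in the array annotation. The brightest probe set stood for each of 22180 genes. In R 4.3.3, limma 3.58.1 fitted 1 coefficient per group to all 10 arrays for 10 comparisons, and a gene was called when its p, adjusted by Benjamini-Hochberg over all genes, was under 0.05. Values after ± are standard errors. Of the steps, only the limma fit was tested on simulated data, for the comparisons of 1 group with another. The comparisons that combine inhibitor differences, the lists, the pattern ranking and the sequence search were not. Pool numbers are names only.

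The 8 genes and the gene and marker lists were chosen with earlier results of these data known. All 8 genes are named in each comparison, and up to 3 called genes with the largest change per list. Of each pattern ranking the first 3 genes are named. The alternatives were other scalings, a filter on dim genes, averaged or separately tested probe sets, a trended and robust prior, only the groups compared, and leaving out each array. Promoter and microRNA sequences are RefSeq's on GRCm38.p6.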

Additional observations from a re-analysis of the deposited data

How the results depend on the processing

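Of 80 changes (8 genes in 10 comparisons), 14 were called, and no called change reversed under the 17 alternatives, which were 10 omissions of 1 array and 7 other settings. Calls were lost 44 times, 32 of them under omissions, and uncalled changes were called 15 times. The number of the 8 genes called for 3 d of overload against none, 4 in the report, was 2 with every probe set tested and 2 to 4 over the omissions. For 10 d against none, 3 in the report, it was 1 with only the groups compared and 2 to 3 over the omissions. For 10 d against 3 d, 2 in the report, it was 0 with every probe set tested, 1 with only the groups compared and 0 to 2 over the omissions. For 3 d with inhibitor against none, 3 in the report, it was 5 with the trended, robust prior and 2 to 3 over the omissions. For 10 d with inhibitor against none, 2 in the report, it was 1 with every probe set tested and 1 to 2 over the omissions. For 10 d against 3 d with inhibitor, 0 in the report, it was 2 with the trended, robust prior, 1 with only the groups compared and 0 over the omissions. For the inhibitor comparisons it was 0 under every alternative run. Against none, the trended, robust prior also gave 5 of the 8 called at 3 d, 4 at 10 d and 3 at 10 d with inhibitor. Against none, a further quantile normalization gave 5 at 3 d and 4 at 3 d with inhibitor. Averaged probe sets gave 3 and 2 for these 2 comparisons, and 3 for 10 d against 3 d. Every probe set tested gave 2 at 10 d and 2 at 3 d with inhibitor, and the dim filter 4 at the latter. Over all genes, the 10 d against none comparison called 1138, and 2115 with the trended, robust prior. With only the groups compared, which left 4 arrays in the fit, it called 31. For 3 d against none, the same setting called 2863 genes, against 3881 in the main fit. The cause of these differences was not tested.

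No paired analysis was possible because the labels give no replicate numbers shared between groups. The 2 pools a group limit the precision of every change.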
